A study of Homo sapiens with 8 samples.

Results

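The 85 genes described here encode the proteins of the cytosolic ribosome. They were chosen by symbol from the 32066 genes of the deposited count table: protein-coding genes named RPL or RPS with a number and an optional letter, L or X suffix, together with RPLP0, RPLP1, RPLP2 and RPSA. Of 86 matching symbols, RPL13P was left out because it is annotated as a processed pseudogene. The 85 members comprise 53 genes of the large (60S) subunit and 32 of the small (40S) subunit, and 8 of them are paralogs of another member. Membership was set by symbol and annotation without any measured value, but the family was chosen with earlier results of these data known.

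The cells were DU145, an established epithelial prostate carcinoma line derived from a brain metastasis. DU145 cells expressing exogenous SOX11, a transcription factor normally active in embryonic neural tissue, were set against DU145 control cells to follow the transcriptional changes that come with SOX11. There were 4 poly(A) RNA libraries per group, with 15309037 to 16740516 counted reads in SOX11 libraries and 14641250 to 18706095 in control libraries. The labels do not say how SOX11 was introduced, whether the SOX11 cells were a clone, or whether the libraries came from separate cultures, so the p-values measure the spread between these libraries, which may be technical.

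SOX11 itself had 303 to 317 reads in each SOX11 library and 0 in every control library, which matched the labels. The epithelial markers EPCAM, KRT8, KRT18, KRT19 and CDH1 were all expressed, with a summed level of 1200 to 1206 CPM (counts scaled to a fixed library size) in SOX11 libraries and 1497 to 1761 CPM in control libraries. KRT8, KRT18 and KRT19 were called lower in SOX11 cells. EPCAM went the other way without being called, at 46.7 to 49.0 CPM in SOX11 libraries and 43.5 to 46.1 CPM in control libraries. CDH1 overlapped between groups and was not called. Of the 4 listed fibroblast markers, 2 were in the table; their sum was 5.62 to 7.53 CPM in SOX11 libraries and 2.703 to 4.79 CPM in control libraries, COL1A2 was below 1 CPM throughout, and COL1A1 was called higher in SOX11 cells. The blood and endothelial markers in the table were below 1 CPM in all 8 libraries. Transcripts of the mitochondrial genome, a rough sign of RNA quality, took 8.73% to 9.35% of counts in SOX11 libraries and 8.55% to 9.24% in control libraries, so the groups overlapped. The part of these differences in the results below was not tested.

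Each ribosome contains a large subunit, which joins amino acids, and a small subunit, which reads the mRNA, and their proteins are needed in near-equal numbers. Most vertebrate ribosomal protein mRNAs begin with a C followed by a run of pyrimidines, the 5′ terminal oligopyrimidine (TOP) tract, through which mTOR and LARP1 control their translation. The mRNAs are among the most abundant in growing cells, and their genes often carry small nucleolar RNAs in their introns.

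The starts of 9 members are shown first because most of the family shares a sequence feature there, which RPL26L1 lacks. RPLP1, RPS21, RPS12 and RPL35 fell in SOX11 cells, RPL22L1 fell while its canonical partner RPL22 was not called, and RPL26L1, RPS14 and RPS23 had higher means in SOX11 cells without passing the test. RPS14 and RPS23 were picked after their values were seen. Each line gives 30 bases before the annotated RefSeq start and 15 bases from it on, in GRCh38.p14 and on the strand of the gene, and capitals mark the TOP-like tract, defined as the longest run that begins with a C within 10 bases of the start and goes on with at least 4 pyrimidines (C or T).
RPLP1 (chr15:69452788-69452832, plus strand): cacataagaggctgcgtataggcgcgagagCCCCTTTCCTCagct
RPS21 (chr20:62387073-62387117, plus strand): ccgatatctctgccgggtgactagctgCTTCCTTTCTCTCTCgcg
RPS12 (chr6:132814539-132814583, plus strand): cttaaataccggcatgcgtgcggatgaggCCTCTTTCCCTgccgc
RPL35 (chr9:124861943-124861987, minus strand): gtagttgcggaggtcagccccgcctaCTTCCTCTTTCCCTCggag
RPL22 (chr1:6199581-6199625, minus strand): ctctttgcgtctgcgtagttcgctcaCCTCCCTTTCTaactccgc
RPL22L1 (chr3:170870181-170870225, minus strand): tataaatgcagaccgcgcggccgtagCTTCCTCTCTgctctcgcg
RPL26L1 (chr5:172958699-172958743, plus strand): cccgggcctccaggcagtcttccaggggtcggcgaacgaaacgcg
RPS14 (chr5:150449725-150449769, minus strand): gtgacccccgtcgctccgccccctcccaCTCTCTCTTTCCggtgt
RPS23 (chr5:82278340-82278384, minus strand): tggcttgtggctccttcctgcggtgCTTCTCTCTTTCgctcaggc

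In SOX11 cells, 50 of the 83 members with enough reads to test (60.2%) were lower than in control cells at an adjusted p below 0.05, and 0 were higher. Over all 15665 tested genes, 9.67% were called lower and 10.3% higher by the same edgeR quasi-likelihood test with Benjamini-Hochberg adjustment. Of the members, 64 were lower and 1, RPL26L1, was higher at an unadjusted p below 0.05. The share of all tested genes at that looser threshold is not given here, so this count has no comparison. DESeq2 called 49 members lower and 0 higher, and limma-voom 52 lower and 0 higher. The 2 members left untested, RPL10L and RPL3L, had 0 to 3 and 0 to 1 reads per library.

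The falls were small. The log2 fold change (SOX11 minus control) of the 83 tested members had a median of -0.10, with an interquartile range of -0.13 to -0.07, against a median of 0.00 over all tested genes. Its ends were RPL22L1 at -0.34 and RPL26L1 at 0.12. It was below 0 for 79 of 83 members (95.2%), compared with 49.7% of all tested genes. Among called members the percent change ran from -20.9% to -5.82%, with a median of -8.21%.

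The libraries separated by group for many members. In 47 members every SOX11 library lay below every control library, and in 0 members every one lay above, while over all tested genes these shares were 10.4% and 10.6%. Of the called members, 39 separated in this way and 11 overlapped, among them RPLP0, RPSA and RPL5. Another 8 members separated without being called, and 15 of the 33 uncalled members had an unadjusted p below 0.05. The matching shares of all tested genes are not given here, so these counts of uncalled members have no comparison.

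**Figure D1:**
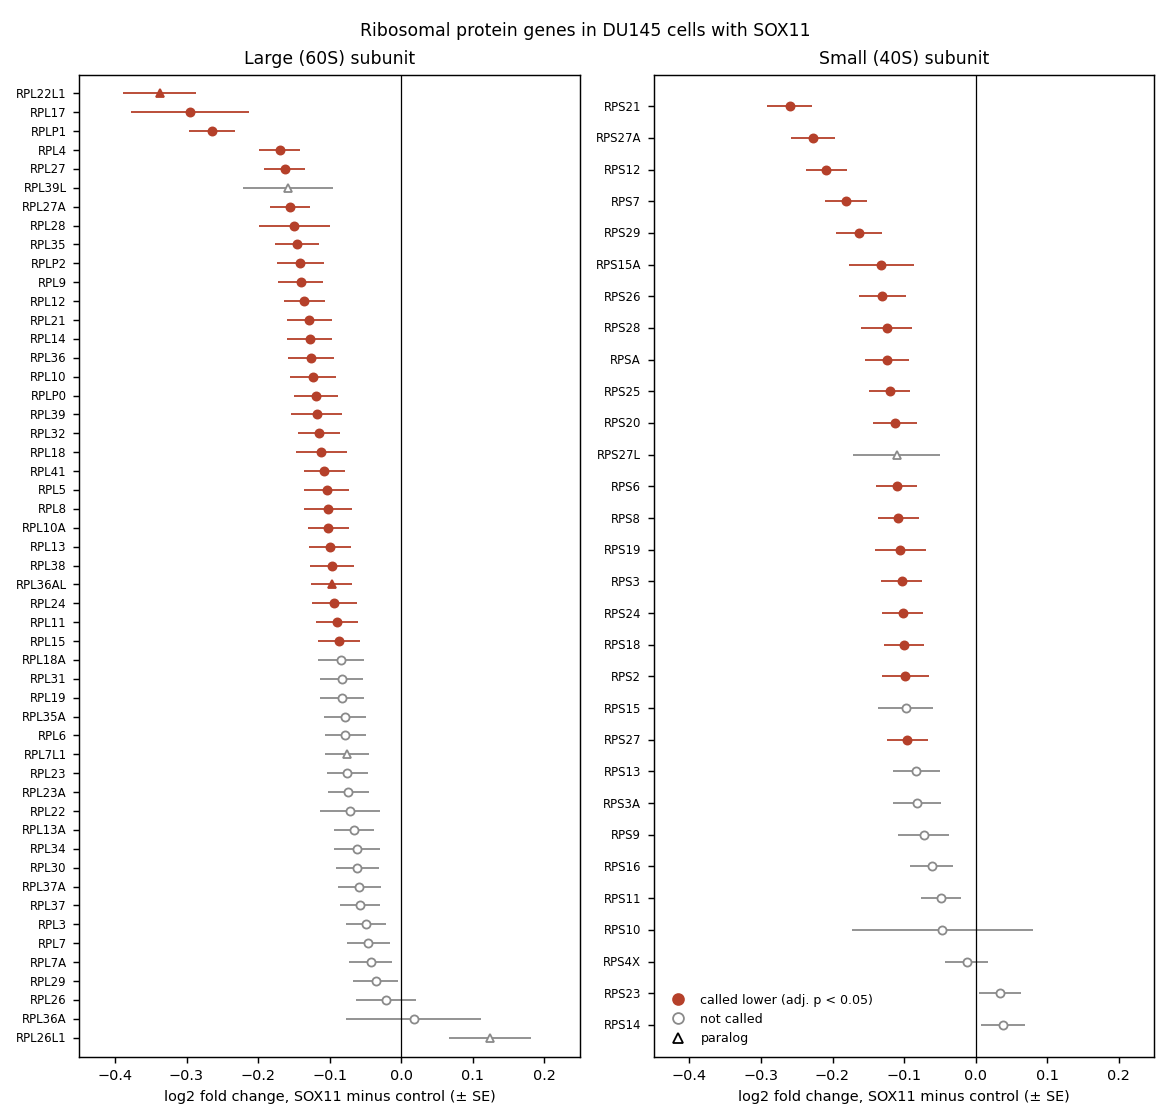
Log2 fold change (SOX11 minus control) of 81 of the 83 tested ribosomal protein genes on the horizontal axis, one gene per row, with the large subunit on the left and the small subunit on the right; points are estimates, bars are ± 1 standard error, filled red symbols are called lower at an adjusted p below 0.05, open grey symbols are not called, and triangles are paralogs. Of the 81 points, 77 lie left of 0, and RPL26L1 (0.12) lies farthest to the right.

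Summed over the 85 members, ribosomal protein mRNA took 4.40%, 4.39%, 4.47% and 4.54% of all counted reads in SOX11 libraries 1 to 4, against 4.62%, 4.68%, 4.70% and 4.78% in control libraries 1 to 4. All 4 SOX11 libraries lay below all 4 control libraries. The means were 4.45% ± 0.0666 in SOX11 cells and 4.70% ± 0.0640 in control cells (SD, n = 4 each), a ratio of 0.948. On the scale normalised by trimmed mean of M-values (TMM), which sets each library against the bulk of its genes, the ratio was 0.929. In bulk RNA, fewer cells of a kind and less of these mRNAs per cell cannot be told apart.

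Both subunits contributed. The large-subunit sum was 2.72% ± 0.0380 of counts in SOX11 cells and 2.87% ± 0.0391 in control cells. The small-subunit sum was 1.73% ± 0.0291 in SOX11 cells and 1.83% ± 0.0253 in control cells (SD, n = 4 each), and in neither subunit did the groups overlap. In the large subunit 29 of 51 tested members were called lower, with a median log2 fold change of -0.10, and in the small subunit 21 of 32, with a median of -0.11. The ratio of small-subunit to large-subunit reads was 0.630 to 0.637 in SOX11 libraries and 0.634 to 0.639 in control libraries, so its groups overlapped, and a difference between the subunits was not tested.

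**Figure D2:**
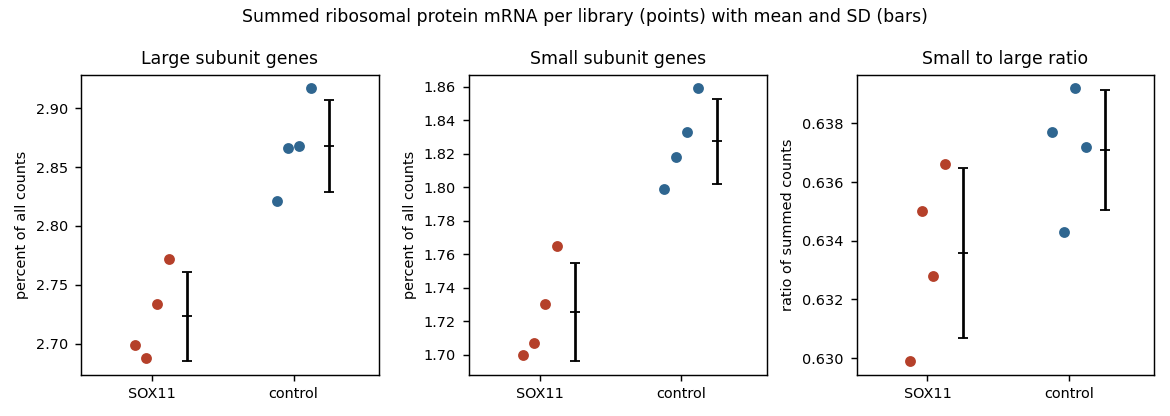
Summed reads of the large-subunit genes and of the small-subunit genes per library as a percent of all counts, and the ratio of small-subunit to large-subunit reads. Points are the 4 libraries of each group, SOX11 left of control, with bars for the mean and SD. The vertical axes do not start at 0. The groups are apart in both sums and overlap in the ratio. For the large subunit, the sums are 2.69% to 2.77% in SOX11 libraries and 2.82% to 2.92% in control libraries.

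The stalk of the large subunit, which recruits the GTPases of translation, had all 3 of its genes called lower. RPLP1 pairs with RPLP2 on the scaffold protein RPLP0. RPLP1 had 821.8, 792.8, 857.7 and 854.8 CPM in SOX11 libraries, against 947.3, 1020.0, 993.2 and 1037.0 CPM in control libraries. Its groups were well apart, and the fall of 16.8% (log2 fold change -0.27 ± 0.0322 SE, adjusted p = 2.79e-07) was the one with the smallest adjusted p among the members. RPLP2 averaged 309.6 ± 9.72 CPM in SOX11 cells and 341.4 ± 13.3 CPM in control cells (SD, n = 4 each), with a log2 fold change of -0.14 (adjusted p = 0.00219). RPLP0 averaged 1810.0 ± 61.4 CPM in SOX11 cells and 1966 ± 57.9 CPM in control cells, with a log2 fold change of -0.12 (adjusted p = 0.00497). The highest SOX11 library of RPLP0, at 1895 CPM, lay just above its lowest control library, at 1887 CPM. All 3 stalk genes were called under every alternative processing.

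RPL4 extends into the tunnel through which the new protein leaves. It had 1635, 1715, 1686 and 1741 CPM in SOX11 libraries and 1873, 1891, 1912 and 1949 CPM in control libraries, without overlap, a fall of 11.1% (log2 fold change -0.17 ± 0.0287 SE, adjusted p = 4.95e-05). RPL35, which sits at the mouth of that tunnel, averaged 411.2 ± 12.1 CPM in SOX11 cells and 455.0 ± 13.4 CPM in control cells, a log2 fold change of -0.15 (adjusted p = 8.44e-04). RPL27 and RPL27A had log2 fold changes of -0.16 (adjusted p = 1.04e-04) and -0.15 (adjusted p = 1.32e-04). RPL27A was the tightest of these: its SOX11 libraries lay between 406.2 and 413.0 CPM, and its control libraries between 452.1 and 460.1 CPM. RPL12, at the base of the stalk, had a log2 fold change of -0.14 (adjusted p = 8.11e-04), and RPL10, which joins late and lies near the peptidyl transferase centre, of -0.12 (adjusted p = 0.00555).

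RPL5 and RPL11 enter the ribosome together with 5S rRNA, and the same particle binds MDM2 when ribosome assembly is disturbed. RPL5 had 566.7, 611.4, 606.8 and 636.7 CPM in SOX11 libraries and 648.5, 635.4, 659.7 and 659.7 CPM in control libraries. SOX11 library 4 reached into the control range, and the log2 fold change was -0.10 ± 0.0319 SE (adjusted p = 0.0192). RPL11 had 533.1, 542.6, 554.6 and 559.4 CPM in SOX11 libraries and 560.7, 589.5, 597.0 and 583.0 CPM in control libraries. The groups met without overlapping, with a log2 fold change of -0.09 ± 0.0296 SE (adjusted p = 0.0300). These calls were near the threshold. RPL5 was no longer called without control library 3 (adjusted p = 0.0656), control library 4 (0.0561) or SOX11 library 1 (0.0901), or with correction for length and GC content (0.0670), and RPL11 lost its call when control library 2, 3 or 4 or SOX11 library 1 or 3 was left out (adjusted p from 0.0512 to 0.115) and with the same correction (0.139).

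By annotated length, the large-subunit gene with the highest level per length was not called. This rank is uncertain, because RPL37, at 1232 CPM in SOX11 cells, was divided by an annotated length of 7686 bases. RPL7A, at 1535 RPKM (CPM per kilobase of transcript) in SOX11 cells and 1580 RPKM in control cells, had a log2 fold change of -0.04 ± 0.0298 SE (adjusted p = 0.356). RPL3, which lies near the catalytic centre and joins early in assembly, had a log2 fold change of -0.05 ± 0.0284 SE (adjusted p = 0.245). RPL7 had one of -0.05 ± 0.0301 SE (adjusted p = 0.317). In RPL7A, RPL3 and RPL7 the groups overlapped. Their standard errors were close to that of RPL4 (0.0287).

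In the small subunit, RPS21 had 250.3, 239.4, 252.2 and 259.9 CPM in SOX11 libraries and 292.0, 301.4, 298.6 and 307.2 CPM in control libraries. Every SOX11 library lay below every control library, and the fall was 16.5% (log2 fold change -0.26 ± 0.0318 SE, adjusted p = 3.25e-07). RPS21 is encoded on chromosome 20 (GRCh38, 62387116 to 62388520, plus strand). RPS27A, made as a fusion of ubiquitin with a ribosomal protein, had 896.1, 963.1, 925.3 and 974.1 CPM in SOX11 libraries and 1100.0, 1070.0, 1101 and 1128 CPM in control libraries. Its groups were apart, with a fall of 14.6% (log2 fold change -0.23 ± 0.0304 SE, adjusted p = 1.53e-06). RPS12, a host of 3 small nucleolar RNAs, had 591.8, 614.4, 594.1 and 612.1 CPM in SOX11 libraries and 703.0, 677.0, 711.2 and 696.7 CPM in control libraries. The groups did not overlap, and the fall was 13.5% (log2 fold change -0.21 ± 0.0288 SE, adjusted p = 2.66e-06).

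RPS7, which like RPL5 and RPL11 can bind MDM2, fell by 11.8% to 539.0 ± 9.91 CPM in SOX11 cells, against 611.2 ± 16.7 CPM in control cells (adjusted p = 2.90e-05). RPS29, a zinc-binding protein of the head of the subunit, fell by 10.7% (adjusted p = 3.68e-04). In both genes every SOX11 library lay below every control library. RPS6, the substrate of the S6 kinases, had a log2 fold change of -0.11 ± 0.0284 SE (adjusted p = 0.00531), and RPSA, also known as a precursor of the laminin receptor, of -0.12 ± 0.0312 SE (adjusted p = 0.00448). RPS6 separated by group, while the highest SOX11 library of RPSA (1044 CPM) passed its lowest control library (1040.0 CPM).

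The 3 small-subunit genes with the highest level per length were RPS27, RPS29 and RPS18. RPS27 stood at 2658 RPKM in SOX11 cells and 2840 RPKM in control cells, with a log2 fold change of -0.10 ± 0.0290 SE (adjusted p = 0.0183). RPS18 stood at 1794 RPKM in SOX11 cells and 1923 RPKM in control cells, with a log2 fold change of -0.10 ± 0.0281 SE (adjusted p = 0.0101). Both were called and neither overlapped between groups. RPS27 lost its call without control library 3 (adjusted p = 0.0911) or SOX11 library 1 (0.0611), and RPS18 with correction for length and GC content (0.0779).

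Members near the other end of the range were chosen after their values were seen. RPS14, a gene of the region deleted in the 5q- form of myelodysplastic syndrome, had 436.3, 421.8, 447.5 and 452.8 CPM in SOX11 libraries and 423.6, 421.1, 427.2 and 440.4 CPM in control libraries. RPS23, a protein of the decoding centre, averaged 528.1 ± 13.9 CPM in SOX11 cells and 515.8 ± 7.68 CPM in control cells. RPS4X averaged 464.1 ± 14.0 CPM in SOX11 cells and 468.1 ± 10.3 CPM in control cells (SD, n = 4 each). The groups overlapped in all 3, their log2 fold changes were 0.04 ± 0.0303, 0.03 ± 0.0292 and -0.01 ± 0.0303 SE, and none was called (adjusted p = 0.423, 0.472 and 0.828).

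**Figure D3:**
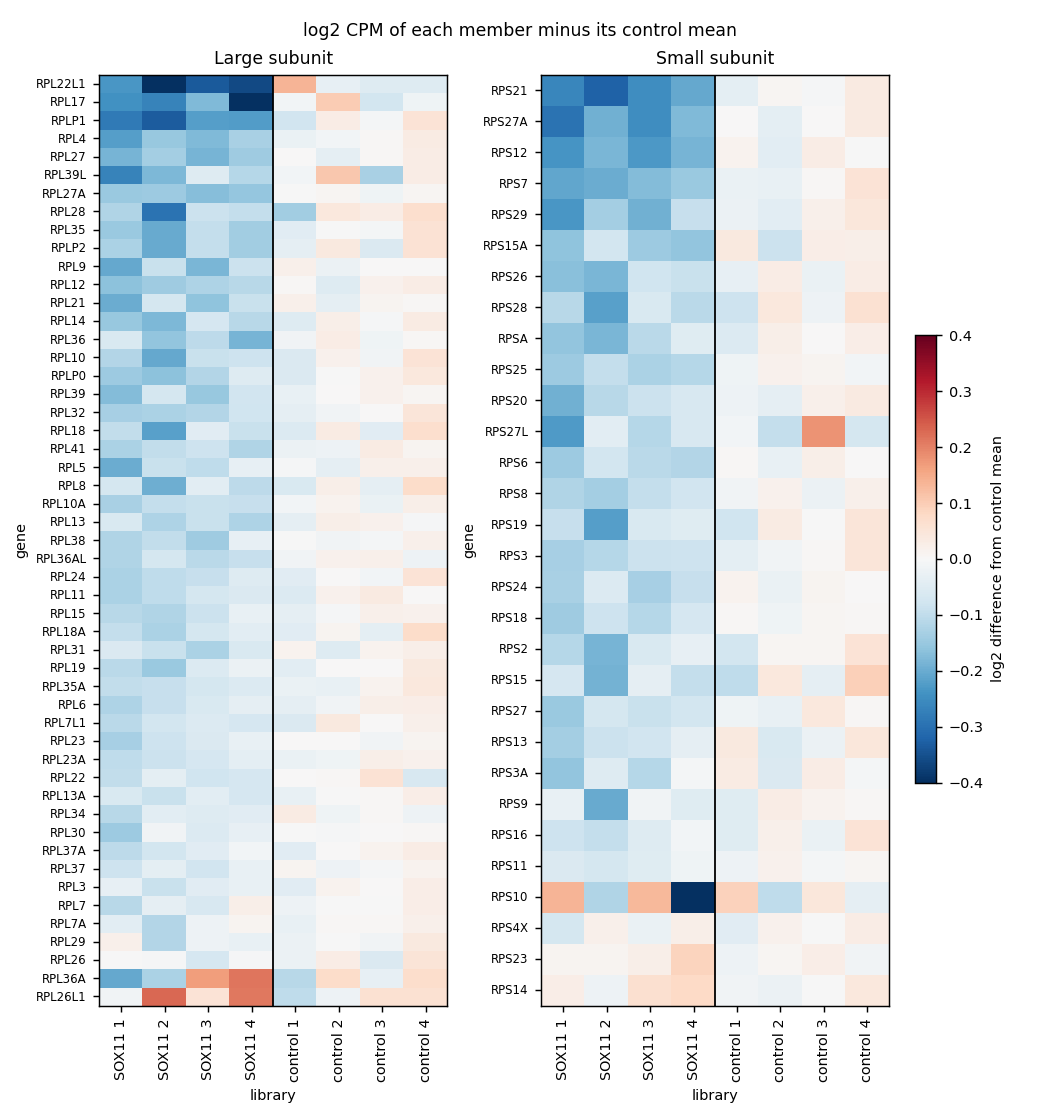
Log2 CPM of 81 of the 83 tested members in each of the 8 libraries (columns, SOX11 left of the vertical line and control right of it) minus its mean in control libraries, coloured from blue (lower) to red (higher); rows are genes ordered by log2 fold change within each subunit. SOX11 columns are blue for most genes. Over all 83 members, 76 to 80 lie below their control mean in a SOX11 library and 13 to 64 in a control library. RPL26L1, RPL36A, RPS14 and RPS23 stand at the bottom.

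The shift was present in each SOX11 library. The median over the 83 members of log2 CPM minus the control mean was -0.13, -0.11, -0.09 and -0.07 in SOX11 libraries 1 to 4, and lay between -0.02 and 0.03 in control libraries. Of the 83 members, 79, 80, 78 and 76 lay below their control mean in these SOX11 libraries. In control libraries 1 to 4 the counts were 64, 42, 34 and 13, so members also moved together within single control libraries. SOX11 libraries 1 and 2 held the lowest value of their group for 43 and 31 members, and SOX11 library 4 the highest for 42.

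The SOX11 libraries differed in which members were lowest. Across the 83 members, the deviation of a library from its group mean had a Spearman correlation with the GC content of the transcript of 0.616 in SOX11 library 1, -0.670 in SOX11 library 2, 0.525 in SOX11 library 3 and -0.142 in SOX11 library 4, while it was between -0.447 and 0.471 in control libraries. These coefficients run across genes of the same library, which are not independent replicates, and the deviations of a group sum to 0. The GC-rich gene RPL28, chosen after its values were seen, had 235.0, 208.0, 240.9 and 239.1 CPM in SOX11 libraries and 231.8, 263.2, 261.0 and 267.4 CPM in control libraries. SOX11 library 2 was the lowest and control library 1 reached into the SOX11 range, and RPL28 (log2 fold change -0.15 ± 0.0499 SE, adjusted p = 0.0467) was called in 13 of 19 fits. Its call was lost without control library 2, 3 or 4 or SOX11 library 1 or 2 (adjusted p from 0.0601 to 0.117) and with limma-voom (0.0528). With a correction for length and GC content, 43 members were called lower, 40 of them among the 50. The part of GC content in the individual results was not tested beyond that correction.

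Of the 8 paralogs, 6 were tested, and RPL22L1 and RPL36AL were called lower; without control library 2 the 1 call left was that of RPL22L1. RPL22L1 had 49.7, 43.7, 46.3 and 45.5 CPM in SOX11 libraries and 64.2, 57.0, 56.4 and 56.3 CPM in control libraries. All SOX11 libraries lay below all control libraries, and the fall of 20.9% was the largest among the members (log2 fold change -0.34 ± 0.0509 SE, adjusted p = 1.05e-05). In mouse, RPL22 protein is known to hold down the level of the RPL22L1 mRNA. RPL22 had 60.1, 62.7, 60.9 and 61.5 CPM in SOX11 libraries and 64.5, 64.5, 67.0 and 61.6 CPM in control libraries, with overlap and a log2 fold change of -0.07 ± 0.0420 SE (adjusted p = 0.252). RPL22 shares exon sequence on its strand with AL031847.2, so some of its reads may be assigned elsewhere.

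Per length, RPL22L1 stood at 0.785, 0.661, 0.721 and 0.702 of RPL22 in SOX11 libraries and at 0.944, 0.838, 0.799 and 0.867 in control libraries. This ratio averaged 0.717 ± 0.0519 in SOX11 cells and 0.862 ± 0.0614 in control cells (SD, n = 4 each), and its groups did not overlap. In the other 5 tested pairs they did. RPL26L1 stood at 0.533 ± 0.0410 of RPL26 in SOX11 cells and at 0.483 ± 0.0293 in control cells. The level of this ratio is uncertain, because RPL26 shares exon sequence with another gene and some of its reads may be assigned elsewhere.

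RPL26L1 was the one tested paralog with a higher mean in SOX11 cells. It had 35.7, 42.2, 37.4 and 41.7 CPM in SOX11 libraries and 33.6, 35.5, 37.6 and 37.6 CPM in control libraries. SOX11 libraries 1 and 3 lay within the control range, and its log2 fold change of 0.12 ± 0.0575 SE was not called (adjusted p = 0.134). Its partner RPL26 had a log2 fold change of -0.02 ± 0.0421 SE (adjusted p = 0.788) and shares exon sequence on its strand with AC135178.2.

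RPL36AL stood per length at 20.1 ± 2.89 times its partner RPL36A in SOX11 cells and at 21.6 ± 1.30 times in control cells. It averaged 390.8 ± 5.90 CPM in SOX11 cells and 417.9 ± 6.10 CPM in control cells, without overlap (log2 fold change -0.10, adjusted p = 0.0158). Its call was lost without control library 2 (adjusted p = 0.0545), control library 3 (0.0580) or SOX11 library 3 (0.0515), and with correction for length and GC content (0.138). RPL36A had a log2 fold change of 0.02 ± 0.0943 SE (adjusted p = 0.924), which turned to -0.05 when pseudogene reads were added. Pseudogene copies held 44.2% of the reads of gene and copies together, and a read-through transcript into HNRNPH2 shares its exons.

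RPL39L, known for its expression in testis, averaged 24.1 ± 1.53 CPM in SOX11 cells and 26.9 ± 1.82 CPM in control cells. Its log2 fold change of -0.16 ± 0.0630 SE was not called (adjusted p = 0.0757), and passed the threshold without control library 3 (0.0371) or SOX11 library 3 (0.0495). RPL39, a small protein of the exit tunnel, had a log2 fold change of -0.12 ± 0.0358 SE (adjusted p = 0.0182), and its call was lost without control library 3 (0.0544), SOX11 library 1 (0.0627) or SOX11 library 3 (0.0678). RPL7L1 and RPS27L had log2 fold changes of -0.08 ± 0.0303 SE (adjusted p = 0.0770) and -0.11 ± 0.0607 SE (adjusted p = 0.218). RPL7L1 passed the threshold without control library 1 (0.0273) or with correction for length and GC content (0.0389). RPL3L, a gene of heart and skeletal muscle, and RPL10L, a gene of testis, were at or near 0 in both groups.

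**Figure D4:**
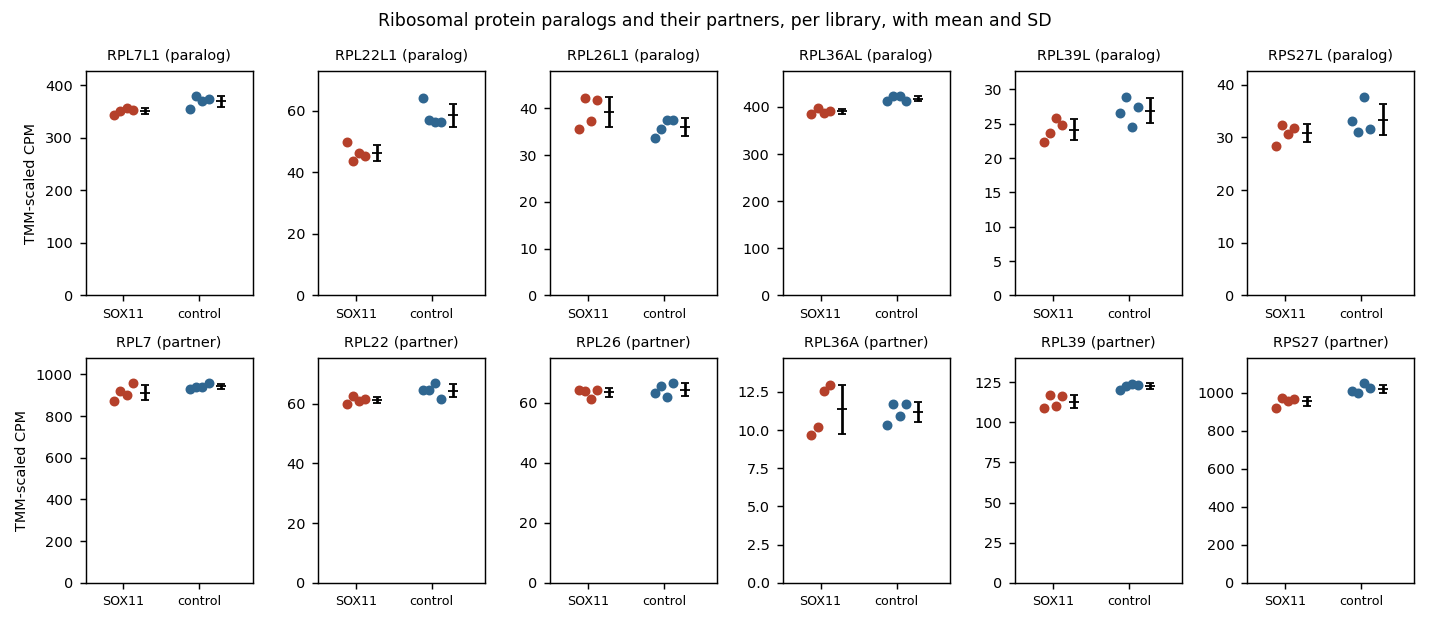
TMM-scaled CPM of the 6 tested paralogs (top row) and their partners (bottom row) in each library, SOX11 left of control, with bars for the mean and SD (n = 4 each) and vertical axes starting at 0. RPL22L1 is lower in all SOX11 libraries (43.7 to 49.7 CPM) than in any control library (56.3 to 64.2 CPM), while RPL22 overlaps between groups.

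Some members share reads with other annotated genes. Pseudogene copies were found for 78 members, 800 table rows in all, and together they took 0.0795% to 0.0821% of counts in SOX11 libraries and 0.0837% to 0.0872% in control libraries, also without overlap. For 5 tested members these rows held over 10% of the reads of gene and copies together: RPS2 (13.1%), RPL31 (22.5%), RPL17 (39.5%), RPL36A (44.2%) and RPS10 (58.7%). Adding the copies to their genes gave 51 members called lower, 49 of them among the 50. Exons of 10 members overlap another gene on the same strand, of which 4 were called lower (2 without control library 4 or without SOX11 library 1), and exons of 15 overlap a gene on the opposite strand, among them RPL10, RPL27A, RPL35, RPS6 and RPS18. The strand setting of the counting is not given in the sources used here, so reads of such pairs cannot be told apart.

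RPL17 belongs to this uncertain set and was chosen after its values were seen. RPL17, whose exons are shared with a read-through into C18orf32, had 12.03, 11.83, 12.59 and 10.03 CPM in SOX11 libraries and 14.12, 15.25, 13.53 and 14.07 CPM in control libraries. The groups did not overlap, and its log2 fold change of -0.29 ± 0.0825 SE (adjusted p = 0.0101) was called in 16 of 19 fits. Its call was lost without control library 2 (adjusted p = 0.0529) or SOX11 library 4 (0.0504), and with pseudogene reads added (0.0563). RPS10 had 62 to 97 reads per library, and its log2 fold change of -0.05 carried a standard error of 0.127.

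The falls were spread over members of different structure. Of the 27 members that host a small nucleolar RNA, 16 were called lower, and of the 56 tested members that host none, 34 were, both with a median log2 fold change of -0.10. Across the 83 tested members, the Spearman correlation of the log2 fold change was 0.0795 with transcript length, -0.0530 with GC content and 0.0355 with mean CPM. These describe genes of the same libraries. Ribosomal protein mRNAs are short and abundant: 66 of them were in the shortest quintile of transcripts and 72 in the highest quintile of expression. The other genes of the shortest quintile had a median log2 fold change of -0.02, with 7.99% called lower, and the other genes of the highest quintile had -0.03, with 21.2% called lower.

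The sequence around the start was searched in the 68 members with a RefSeq promoter entry. A TOP-like tract as defined above was found in 83.8% of them, compared with 33.5% of all 35116 promoter entries, and it began within 2 bases of the start in 32.4% of members and 7.82% of all entries. A C within 2 bases of the start and followed by at least 4 pyrimidines, whether at the head of a tract or inside one, was found in 67.6% of members and 10.5% of all entries. A tract of at least 8 letters began within 10 bases in 69.1% of members and 9.17% of all entries. Of the tested members whose tract began within 2 bases of the start, 14 of 22 were called lower, and of the other members with an entry, 28 of 45, both with a median log2 fold change of -0.10. RPL22L1, as printed above, has a tract and a low value, RPL26L1 has none and a high value, and RPS14 and RPS23 have tracts with values near 0. Among the 6 paralogs with an entry, 2 have a tract within 10 bases of the start.

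Within the 300 bases of each entry (250 before and 50 after the start, both strands), the ETS-type motif CGGAAG occurred in 61.8% of members and 19.5% of all entries. The motif AAGATGGC, bound by YY1, occurred in 10.3% of members and 2.89% of all entries. The MYC-type E-box CACGTG occurred in 5.88% of members and 7.26% of all entries, and TATAAA in 10.3% of members and 11.5% of all entries. ACAAAG, a core bound by SOX proteins, occurred in 5.88% of members, against 16.1% of all entries. The motifs do not contain each other, and a match is a description of letters, not of binding.

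Other TOP mRNAs were compared as a list of 20 genes, of which 19 were tested. In SOX11 cells 2 were called lower (10.5%) and 0 higher, with a median log2 fold change of -0.02. The share called lower was near that of all tested genes, of which 9.67% were called lower and 10.3% higher. However, the 19 genes all lay in the highest quintile of expression, where 21.2% of genes other than members were called lower. DESeq2 and limma-voom also called 2 lower and 0 higher. At an unadjusted p below 0.05 the counts were 2 and 0, for which no share of all tested genes is given here. The called genes were EEF1B2, the exchange factor of elongation factor eEF1A, at -0.16 ± 0.0298 SE (adjusted p = 1.95e-04), and FAU, which encodes a ubiquitin-like protein fused to ribosomal protein S30, at -0.15 ± 0.0422 SE (adjusted p = 0.0111). EEF1B2 had 336.3 to 358.0 CPM in SOX11 libraries and 380.9 to 392.3 CPM in control libraries, while the groups of FAU overlapped and its call was lost without control library 4 (adjusted p = 0.0512). RACK1, a scaffold bound to the small subunit, had a log2 fold change of 0.03 ± 0.0313 SE (adjusted p = 0.643). EEF1A1, the elongation factor itself, averaged 4101 ± 86.8 CPM in SOX11 cells and 4077 ± 44.2 CPM in control cells (SD, n = 4 each).

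Of 14 tested regulators of ribosomal protein synthesis, 0 were called lower and 3 (21.4%) higher by edgeR. Over all tested genes the shares were 9.67% lower and 10.3% higher. DESeq2 and limma-voom gave the same counts of regulators. RPS6KB1, the S6 kinase that phosphorylates the RPS6 protein, had 50.04, 50.75, 48.23 and 50.08 CPM in SOX11 libraries and 37.75, 44.20, 42.79 and 40.13 CPM in control libraries, without overlap (log2 fold change 0.27 ± 0.0506 SE, adjusted p = 1.96e-04). EIF4EBP2, a repressor of cap-dependent translation, rose by 0.16 ± 0.0359 SE on the log2 scale (adjusted p = 0.00178). MYC, an activator of ribosomal protein genes, had a log2 fold change of 0.04 ± 0.0483 SE (adjusted p = 0.629), and LARP1, the TOP-binding protein, of 0.02 ± 0.0327 SE (adjusted p = 0.710). MDM2 had one of 0.06 ± 0.0514 SE (adjusted p = 0.428).

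The 8 chaperones that carry single ribosomal proteins to the nucleolus or the assembling subunit were all tested. By edgeR, 0 were called in either direction, as with DESeq2 and limma-voom, and 1 of them, BCCIP, was lower at an unadjusted p below 0.05 and passed the adjusted threshold without SOX11 library 4 (edgeR adjusted p = 0.0492). All 8 log2 fold changes were below 0, with a median of -0.06, while 49.7% of all tested genes were below 0. TSR2, the carrier of RPS26, had one of -0.01 ± 0.0586 SE, which turned to 0.01 with correction for length and GC content, and PDCD2, which serves RPS2, had one of -0.08 ± 0.0409 SE.

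The share of members called lower stayed above that of all genes under each of 18 alternative ways of processing the counts. With all 8 libraries, 43 to 52 members were called lower, the lowest count coming with correction for length and GC content. Leaving out 1 library gave 37 to 55 members. In the fit as reported and all 18 alternatives, 28 members were called lower each time, among them RPLP1, RPS21, RPS27A, RPS12, RPS7, RPL4, RPL27 and RPL22L1.

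**Figure D5:**
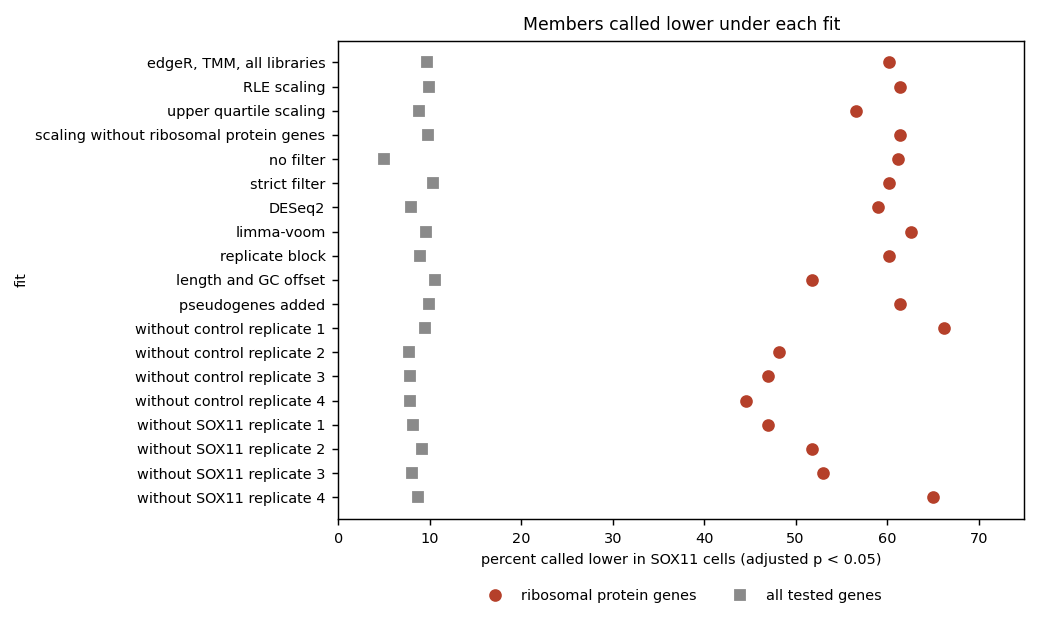
Percent of tested ribosomal protein genes (red circles) and of all tested genes (grey squares) called lower in SOX11 cells at an adjusted p below 0.05, one row for the reported fit and each of the 18 alternatives. The members lie between 44.6% (without control library 4) and 66.3% (without control library 1), and all genes between 5.03% and 10.6%.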

How the data were processed

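Poly(A) RNA libraries (TruSeq Stranded mRNA) were made from RNA extracted with a Maxwell RSC simplyRNA kit, per the labels' protocols. The authors deposited raw counts per Ensembl gene, with no normalization. Per the submitters' processing notes, the tools included cutadapt, FastQC and STAR 2.7.0e, with build GRCh38. How reads were assigned to genes, with which strand option and on which annotation, is not given in the sources used here. Table columns carry the sample titles, which also gave the groups.

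Of 32066 Ensembl identifiers, 32053 could be given a symbol. Exon overlaps and transcript lengths came from GENCODE 29, which may not be the annotation the authors counted on; a length is that of the shortest complete transcript with the principal coding length. It enters RPKM values, the length offset and the length quintiles. The length is uncertain for members whose annotated transcripts are long, such as RPL37, RPL27A, RPS27L, RPL37A, RPS23 and RPL23. Start sequences came from RefSeq (GRCh38.p14), with an entry for 68 of 85 members.

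Counts were fitted with edgeR 4.0.16 in R 4.3.3 (TMM scaling, filterByExpr with a minimum count of 10, quasi-likelihood F test, robust) over the 15665 genes that passed, with 2 groups and no covariate. P-values were adjusted by Benjamini-Hochberg over all tested genes, and called means an adjusted p below 0.05. Reported CPM values are TMM-scaled; shares of counts are not. Totals ran from 14641250 to 18706095 reads per library, and 72 members averaged above 100 CPM. The fit was also run on simulated counts with known changes, but the outcome is not given and no result here rests on it. No 2 libraries agreed within sampling noise (chi-square per degree of freedom 1.39 to 3.01 within groups).

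The 18 alternatives were RLE and upper quartile scaling, scaling without ribosomal protein genes, no filter, a filter of 1 CPM in 4 libraries, DESeq2 1.42.0, limma-voom (limma 3.58.1), a replicate block, an offset for length and GC content, pseudogene reads added to their genes, and leaving out each of the 8 libraries. The members, lists and tests were chosen with earlier results of these data known. Genes named were, per subunit, the 6 called canonical genes with the smallest adjusted p and the 3 highest per length, all paralogs and partners, the stalk genes, RPL5, RPL11, RPS6, RPSA and RPS27A, and up to 4 called genes of each other list with FAU and RACK1; a few genes that the rule names are not reported here. All further genes with values were added after their values were seen.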

Additional observations from a re-analysis of the deposited data

Results flagged for a closer look

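In 144 groups of 4 libraries (67 genes reported in the text and 5 summed measures, in SOX11 and in control cells), the gap between an extreme library and its neighbour was divided by the whole range of the group, and 6 groups exceeded the 95% critical value of Dixon's test. Chance alone flags about 5% of groups. RPL22L1 in control cells had a ratio of 0.907, since control library 1 stood at 64.2 CPM and the others at 56.3 to 57.0 CPM; without that library its log2 fold change was -0.29 (edgeR adjusted p = 8.00e-05), against -0.34 with it. RPL26 in SOX11 cells had a ratio of 0.941, with SOX11 library 3 at 61.4 CPM and the others at 64.1 to 64.2 CPM. RPS18 in control cells had a ratio of 0.832, with control library 2 at 1163 CPM and the others at 1182 to 1186 CPM. RPS23 in SOX11 cells had a ratio of 0.844, with SOX11 library 4 at 548.7 CPM and the others at 519.6 to 524.2 CPM. RPL31 in control cells had a ratio of 0.876, with control library 2 at 295.8 CPM and the others at 309.7 to 311.7 CPM; without that library RPL31 was called lower (log2 fold change -0.10, edgeR adjusted p = 0.0387), which it was not with it (-0.08, adjusted p = 0.0531). RPL34 in SOX11 cells had a ratio of 0.865, with SOX11 library 1 at 171.5 CPM and the others at 178.6 to 179.8 CPM. Leaving out the extreme library changed no call of RPL22L1, RPL26, RPS18, RPS23 or RPL34.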

How the results depend on the processing

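The counts of members called lower or higher, over all members and in each subunit, stayed within 1.5 times the reported counts under the 18 alternatives. Smaller counts moved further when 1 library was left out: paralogs called lower numbered 1 to 3, and members with a same-strand overlap called lower 2 to 4. With 8 libraries the members called lower numbered 43 with the length and GC offset and 47 to 52 otherwise; leaving out 1 library gave 37 to 55 members (21 to 34 in the large subunit and 16 to 22 in the small) and medians of -0.11 to -0.09. The median log2 fold change was -0.08 for all members (-0.0779) and for the small subunit (-0.0813) with the length and GC offset. The cause of this change in the medians was not tested. The summed ratio was 0.929 in TMM-scaled CPM, against 0.948 in shares of counts, which lack the TMM factor. That factor was 1.005 to 1.016 in SOX11 libraries and 0.987 to 0.995 in control libraries, so it separated by group. Of the other TOP mRNA genes, 1 to 3 were called lower when 1 library was left out, the lowest count coming without control library 4. With the offset the log2 fold change turned to 0.00901 in RPL26, 0.00916 in RPS4X and 0.0131 in TSR2. With pseudogene reads added it turned to -0.0519 in RPL36A and 0.140 in RPS10. When 1 library was left out it ran across 0 in RPL36A (-0.0521 to 0.0842), RPS4X (-0.0276 to 0.00455), RPS10 (-0.114 to 0.05), EEF1A1 (-0.00837 to 0.0163), LARP1 (-0.000645 to 0.051) and TSR2 (-0.0511 to 0.0462). Of 1206 pairs of an alternative and 1 of 67 genes reported in the text, 1134 kept direction and side of the threshold, 42 lost the call, 16 gained it and 14 changed sign, all 14 in genes not called. The deviations of same-numbered libraries from their group means correlated at 0.0632, -0.0683, -0.0412 and 0.109. SOX11 library 4 correlated best with control library 4 (0.109), and SOX11 library 2 with control library 1 (0.0832). The deviations of a group sum to 0 over 4 libraries, so these values cannot settle whether replicate numbers pair the samples. With the replicate block 50 members were called lower, 49 of them the same. Other TOP mRNA genes called lower under the block numbered 2. Depth limits members such as RPS10, RPL17 and RPL36A, whose mean level was below 20 CPM, and RPL3L and RPL10L, which were not testable.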

Other observations

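Among called members not described above and chosen after their values were seen, RPL41, which encodes the shortest protein of the large subunit, averaged 351.3 ± 4.66 CPM in SOX11 cells and 378.4 ± 7.01 CPM in control cells (SD, n = 4 each), without overlap (log2 fold change -0.11, edgeR adjusted p = 0.00826). RPS26, which lies at the mRNA exit of the small subunit, had 190.3, 188.0, 201.9 and 200.6 CPM in SOX11 libraries and 208.7, 217.8, 209.7 and 218.1 CPM in control libraries, also without overlap (-0.13, adjusted p = 0.00506). RPS19, the gene most often mutated in Diamond-Blackfan anaemia, had 732.3, 670.0, 748.4 and 755.1 CPM in SOX11 libraries and 739.0, 799.0, 779.7 and 807.1 CPM in control libraries. Its groups overlapped at control library 1, with a log2 fold change of -0.10 ± 0.0351 SE (adjusted p = 0.0336). The call of RPS19 was lost without control library 2, 3 or 4 or SOX11 library 1 or 2 (adjusted p from 0.0576 to 0.133), and with correction for length and GC content (0.0513).

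The 8 members whose libraries separated by group without a call were RPL13A, RPL23, RPL23A, RPL30, RPL31, RPL34, RPL35A and RPL37, all of the large subunit. Their log2 fold changes ran from -0.08 in RPL31 to -0.06 in RPL37, with adjusted p from 0.0531 in RPL31 to 0.192 in RPL34. RPL31 passed the threshold under 5 of the 18 alternatives, RPL23 and RPL23A under 2 and RPL35A and RPL37 under 1. RPL37 had 1210.0, 1248, 1215 and 1255 CPM in SOX11 libraries and 1291, 1264, 1278 and 1294 CPM in control libraries.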
